A study of Mus musculus with 12 samples.

Results

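N-acetylcysteine (NAC) alone was compared with vehicle in activated mouse CD8 T cells. This comparison took the 3 libraries titled as NAC treatment and the 3 titled as vehicle treatment, which are 6 of the 12 libraries of the series, and covered the 13636 genes of 55450 listed that passed a filter on low counts. The cells of both groups were CD8 T cells of pmel-1 mice, which carry a transgenic T cell receptor for a peptide of the melanoma antigen gp100, with the wild-type Ucp2 gene. Both groups were stimulated in culture and kept for 4 days in 10 ng/ml of IL-2. The stimulus may have been the peptide or anti-CD3 with anti-CD28, since the labels name both, and they give neither the dose of NAC nor the length of exposure. Vehicle was culture medium. The other 6 libraries had genipin, or genipin with NAC. They entered the filter, the scaling between libraries and the estimate of the spread. They also served to set the NAC effect beside its value in the presence of genipin. With only the NAC and vehicle libraries, 13095 genes passed the filter.

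NAC is a thiol. It is taken up by cells, is deacetylated to cysteine, and so can feed the synthesis of glutathione, and as a free thiol it can also bind metal ions and exchange disulfide bonds. Activated T cells depend on cysteine from outside, take up cystine and amino acids through transporters induced on activation, and use reactive oxygen species as signals downstream of the T cell receptor. After activation they pass through glycolytic growth and then divide between effector cells, which kill and migrate to tissue, and memory precursors, which keep transcription factors such as Tcf7.

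The 6 libraries held between 20838894 and 29150867 expected counts (estimated counts from reads assigned to genes), so a gene without counts could be at up to 0.107 to 0.138 CPM (counts scaled to the library's total and between libraries) for counting error only. Replicates lay close together, with a common biological coefficient of variation of 0.0393. The labels do not say whether replicates came from separate mice or cultures, so p-values measure only the spread between these libraries. The labelled cell type was checked on its markers: Cd8a was at 464, 470 and 477 CPM with vehicle and 807, 807 and 836 CPM with NAC, Cd8b1 at 268, 276 and 277 CPM with vehicle and 397, 395 and 409 CPM with NAC, and Cd4 at 1.01, 1.46 and 1.29 CPM with vehicle and 5.06, 5.02 and 5.25 CPM with NAC. In bulk RNA, fewer cells of a type and less RNA per cell cannot be told apart. RSEM can split reads between near-identical genes, so single values of granzymes, Klra receptors, Hspa1a and Hspa1b, Bcl2a1 genes, H2-Q genes and histones are uncertain, as are those of overlapping genes, since the strand setting of the counting is not given in the sources used here.

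NAC changed a large part of the transcriptome. By the quasi-likelihood test in edgeR, adjusted over all genes tested by the Benjamini-Hochberg method, 8134 genes (59.7%) differed at adjusted p under 0.05, of which 4041 (29.6%) were higher and 4093 (30.0%) lower with NAC. Most of these differences were small. In 8983 genes (65.9%) the CPM of the NAC and vehicle libraries did not overlap. Against a change of 1.5-fold, tested with glmTreat in edgeR, 1423 genes (10.4%) passed, 830 of them higher (6.09%) and 593 lower (4.35%), and the median log2 fold change of all genes was -0.01. Here "rose" and "fell" mark genes past the first threshold, "past 1.5-fold" marks those past the second, and values after a gene are log2 fold changes, NAC minus vehicle, ± SE with n = 3 libraries per group. Scaling by library totals alone raised the median of all genes by 0.12, which moved the share of higher genes among those called from 49.7% to 67.5%. Of 1667 genes on 64 lists of pathways and cell types, 1529 were tested, and list counts below refer to tested members.

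**Figure D1:**
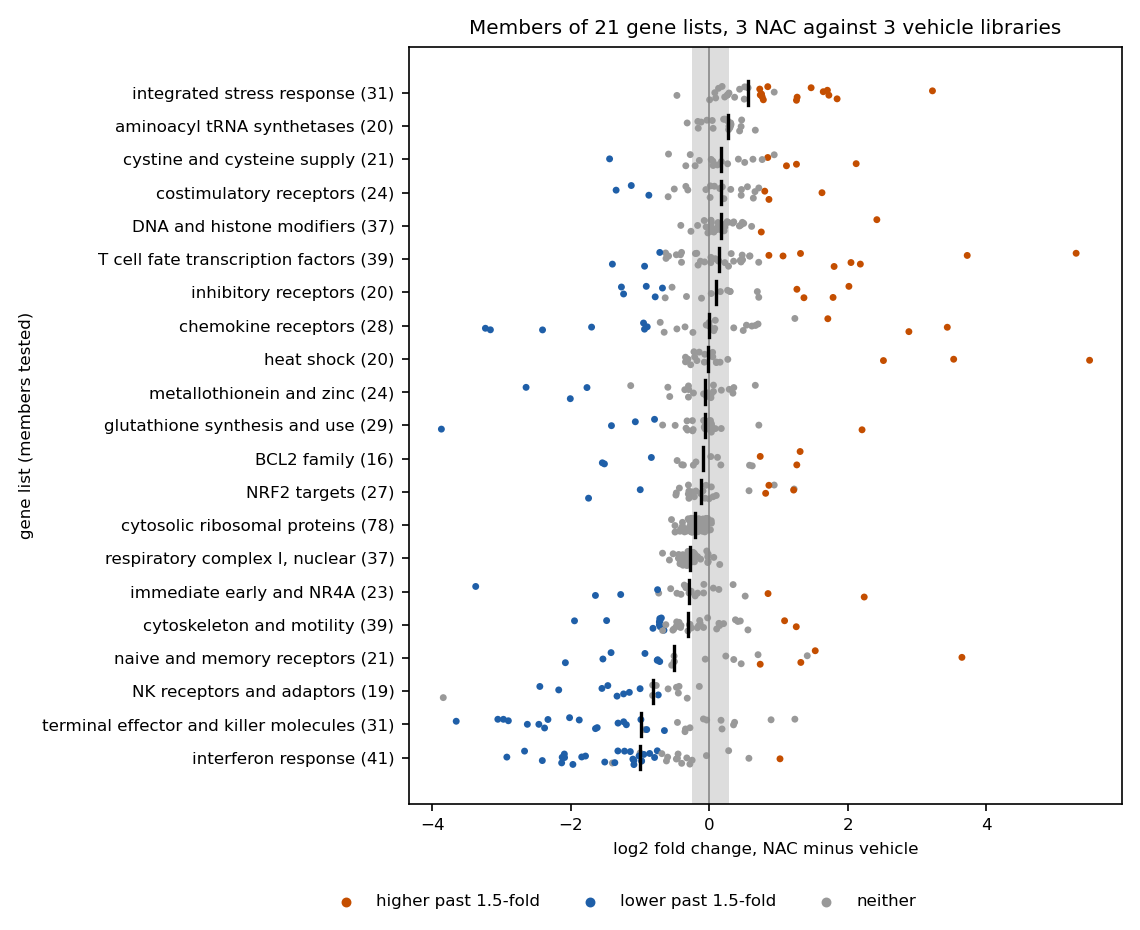
Log2 fold change (x axis, NAC minus vehicle) of each tested member of 21 gene lists (y axis, number tested in parentheses), with orange for members higher and blue for members lower past 1.5-fold. Black bars are list medians and the grey band holds the middle part of all genes between the quartiles. The integrated stress response list has its median at 0.56, while the interferon list has its median at -0.999 and ribosomal proteins form a narrow cloud just below 0.

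For the metal, amino acid stress and interferon lists, each of which has a known DNA element, the promoters of 2 members are printed first, those with the largest change among called members that hold a match. Metallothionein genes are switched on through metal response elements, short sequences bound by the zinc-sensing factor Mtf1. The promoters of Mt2 (chr8:94172368-94172647, + strand) and Mt1 (chr8:94178839-94179118, + strand), which lie side by side, are given here. These windows run from 250 bases before to 30 bases after the RefSeq start on GRCm38.p6, the same assembly as mm10, 5′ to 3′ on the strand of the gene, and capitals mark each match to TGCACNC or TGCGCNC on either strand, 4 in Mt2 and 3 in Mt1.
Mt2: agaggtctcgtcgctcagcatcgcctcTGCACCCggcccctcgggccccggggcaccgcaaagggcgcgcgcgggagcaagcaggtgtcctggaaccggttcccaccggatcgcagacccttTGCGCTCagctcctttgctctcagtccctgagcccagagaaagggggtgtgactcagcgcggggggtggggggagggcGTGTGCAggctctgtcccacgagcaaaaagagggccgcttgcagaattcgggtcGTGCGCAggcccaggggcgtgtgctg
Mt1: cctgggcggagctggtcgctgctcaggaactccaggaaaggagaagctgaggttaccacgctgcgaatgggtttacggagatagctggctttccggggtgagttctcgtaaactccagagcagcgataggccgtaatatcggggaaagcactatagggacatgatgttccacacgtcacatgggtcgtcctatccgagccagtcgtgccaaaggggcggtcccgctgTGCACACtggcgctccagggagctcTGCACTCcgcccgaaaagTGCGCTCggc
Matches are common: 28.2% of the 27025 genes with a promoter in the table held at least 1 in the full window of 300 bases, against 11 of 20 members of the metallothionein and zinc list, and all 3 members past 1.5-fold did.

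Genes of the integrated stress response, which the factor Atf4 turns on when amino acids run short or unfolded protein builds up, can hold an element of the form TGATGNAA. Capitals mark it in Nupr1 (chr7:126625441-126625720, - strand), a small stress-induced chromatin protein, and in Trib3 (chr2:152344031-152344310, - strand), a pseudokinase that dampens the same response, each with 1 match read on the opposite strand.
Nupr1: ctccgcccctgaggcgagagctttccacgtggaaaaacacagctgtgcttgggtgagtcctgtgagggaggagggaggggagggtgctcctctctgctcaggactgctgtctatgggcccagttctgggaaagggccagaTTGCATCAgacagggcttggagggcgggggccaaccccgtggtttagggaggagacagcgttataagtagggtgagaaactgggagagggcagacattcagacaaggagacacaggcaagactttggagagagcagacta
Trib3: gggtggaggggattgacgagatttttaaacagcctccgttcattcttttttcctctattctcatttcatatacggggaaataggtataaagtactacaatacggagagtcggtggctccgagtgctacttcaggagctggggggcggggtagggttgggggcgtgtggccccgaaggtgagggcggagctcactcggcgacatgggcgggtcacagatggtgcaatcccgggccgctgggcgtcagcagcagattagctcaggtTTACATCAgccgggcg
In all, 10 of 26 members with a promoter in the table held a match, against 4.51% of all genes there.

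Interferon-stimulated response elements contain GAAANNGAA and bind the interferon-activated Stat and Irf factors. Capitals mark the stretches covered by matches, which overlap, in Oas1a (chr5:120907496-120907775, - strand), which makes the second messenger that activates RNase L, and in Isg15 (chr4:156200789-156201068, - strand), a ubiquitin-like modifier.
Oas1a: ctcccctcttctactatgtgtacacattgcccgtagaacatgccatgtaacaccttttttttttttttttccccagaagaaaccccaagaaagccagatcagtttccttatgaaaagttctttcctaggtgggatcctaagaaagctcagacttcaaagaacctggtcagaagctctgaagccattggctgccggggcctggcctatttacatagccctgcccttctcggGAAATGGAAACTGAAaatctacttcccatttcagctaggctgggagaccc
Isg15: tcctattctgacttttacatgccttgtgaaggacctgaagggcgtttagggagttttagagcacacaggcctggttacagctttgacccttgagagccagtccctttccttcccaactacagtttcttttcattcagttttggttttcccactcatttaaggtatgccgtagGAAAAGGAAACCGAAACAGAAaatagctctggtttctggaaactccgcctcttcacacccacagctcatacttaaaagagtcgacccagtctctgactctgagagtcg
Of 30 interferon list members with a promoter, 18 held this element, against 9.76% of all genes. A match says only that these letters are in the window.

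Amino acid stress genes rose together with NAC. Of 31 members of the integrated stress response list, 26 rose and 1 fell, 14 rose past 1.5-fold, and the list's median was 0.56. Atf4-driven genes take up and make amino acids, among other roles. Slc7a3, a cationic amino acid transporter, was at 7.31, 7.09 and 8.04 CPM with vehicle and 21.2, 19.3 and 21.9 CPM with NAC (1.47 ± 0.09, adjusted p = 6.99e-12). Nupr1 stood at 1.94, 1.54 and 2.21 CPM with vehicle and 7.54, 6.76 and 6.397 CPM with NAC (1.85 ± 0.18). Ddit3, which encodes the stress factor Chop, was at 20.5, 23.7 and 21.6 CPM with vehicle and 54.2, 52.5 and 52.0 CPM with NAC (1.27 ± 0.07, adjusted p = 1.60e-12). In each of these genes every NAC library lay above every vehicle library, by more than the range within either group. Aldh1l2, the mitochondrial enzyme that oxidises formyl-tetrahydrofolate to carbon dioxide and makes NADPH, rose from 0.779 ± 0.245 to 7.41 ± 0.663 CPM (SD, n = 3; 3.22 ± 0.22). Of the regulators themselves, Atf5 rose as Ddit3 did (1.71 ± 0.08), Atf4 rose by little (0.13 ± 0.03), and Atf3 was the member that fell (-0.47 ± 0.05). Eif2ak3, the kinase Perk that senses unfolded protein in the endoplasmic reticulum, fell (-0.59 ± 0.03). None of the 30 members of the list of endoplasmic reticulum chaperones passed 1.5-fold, with 14 higher and 8 lower. With library totals alone 3 of them rose past 1.5-fold, with 18 higher and 5 lower.

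Among transporters and synthetases for amino acids more members rose than fell. Of 19 members of the amino acid transporter list 9 rose and 4 fell (12 and 1 with library totals alone), with a median of 0.09, and the largest fall was that of the lysosomal carrier Slc36a1 (-0.29 ± 0.07). Slc3a2, the heavy chain shared by the cystine and large neutral amino acid transporters, was at 237, 233 and 236 CPM with vehicle and 336, 336 and 333 CPM with NAC (0.51 ± 0.03). Its partner for large neutral amino acids, Slc7a5, rose (0.54 ± 0.04), and so did Slc7a1 (0.53 ± 0.04) and the glutamine carrier Slc38a2 (0.52 ± 0.03). Slc7a11, the cystine-specific partner, was near the floor of detection in both groups, at 0.591, 0.543 and 1.04 CPM with vehicle and 1.43, 1.44 and 1.37 CPM with NAC (0.94 ± 0.31, adjusted p = 0.0135), and its call was lost without vehicle replicate 1 or 2 and with offsets from effective lengths. Of 20 cytosolic aminoacyl tRNA synthetases, which load amino acids on tRNA, 13 rose and 4 fell and none passed 1.5-fold, with a median of 0.27 (1 fell and 1 passed with library totals alone). The largest of these rises was that of Cars, which loads cysteine (71.0, 67.8 and 69.9 CPM with vehicle and 113, 113 and 104 CPM with NAC, 0.66 ± 0.04), and Dars, which loads aspartate, fell most (-0.32 ± 0.03).

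The list of cystine and cysteine supply rose in part, and not all of its members make or bring in cysteine. Among 21 genes of cystine and cysteine supply 9 rose and 4 fell, 4 and 1 of them past 1.5-fold. Cth, which releases cysteine from cystathionine, was at 3.76, 2.92 and 3.97 CPM with vehicle and 7.96, 9.37 and 8.22 CPM with NAC (1.26 ± 0.17). Slc6a9, a glycine transporter, was at 3.21, 2.46 and 3.93 CPM with vehicle and 14.6, 13.8 and 13.8 CPM with NAC (2.12 ± 0.13, adjusted p = 1.20e-11), and Slc1a4, which carries serine, cysteine and alanine, was at 15.4, 14.6 and 18.4 CPM with vehicle and 27.6, 30.2 and 29.5 CPM with NAC (0.84 ± 0.08). Sqor, the mitochondrial enzyme that oxidises hydrogen sulfide, rose as well (1.11 ± 0.14). The member that fell past 1.5-fold was Ggt1, the surface enzyme that opens extracellular glutathione, at 2.32, 2.46 and 2.57 CPM with vehicle and 1.06, 0.567 and 1.10 CPM with NAC (-1.44 ± 0.25).

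The genes of glutathione synthesis showed small differences. Gclc, the catalytic subunit of the limiting enzyme, was at 30.4, 30.8 and 33.6 CPM with vehicle and 32.1, 32.6 and 30.0 CPM with NAC, and its log2 difference was 0.00 ± 0.06. The regulatory subunit Gclm had -0.06 ± 0.06 and glutathione peroxidase Gpx4 had -0.04 ± 0.05, and none of these 3 passed the test. Of 29 members of the glutathione list, 3 rose and 11 fell (8 rose when library totals alone were used). Glrx, the glutaredoxin that removes glutathione from proteins, fell most among members above 5 CPM, from 312, 316 and 328 CPM with vehicle to 154, 150 and 152 CPM with NAC (-1.07 ± 0.03, adjusted p = 2.36e-17), with no overlap between groups. Mgst3, a membrane glutathione transferase, fell (-0.79 ± 0.08), and glutathione reductase, Gsr, fell less (-0.24 ± 0.04). Gss, which adds glycine, rose slightly (0.17 ± 0.06, adjusted p = 0.0121), and was not called without NAC replicate 1.

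**Figure D2:**
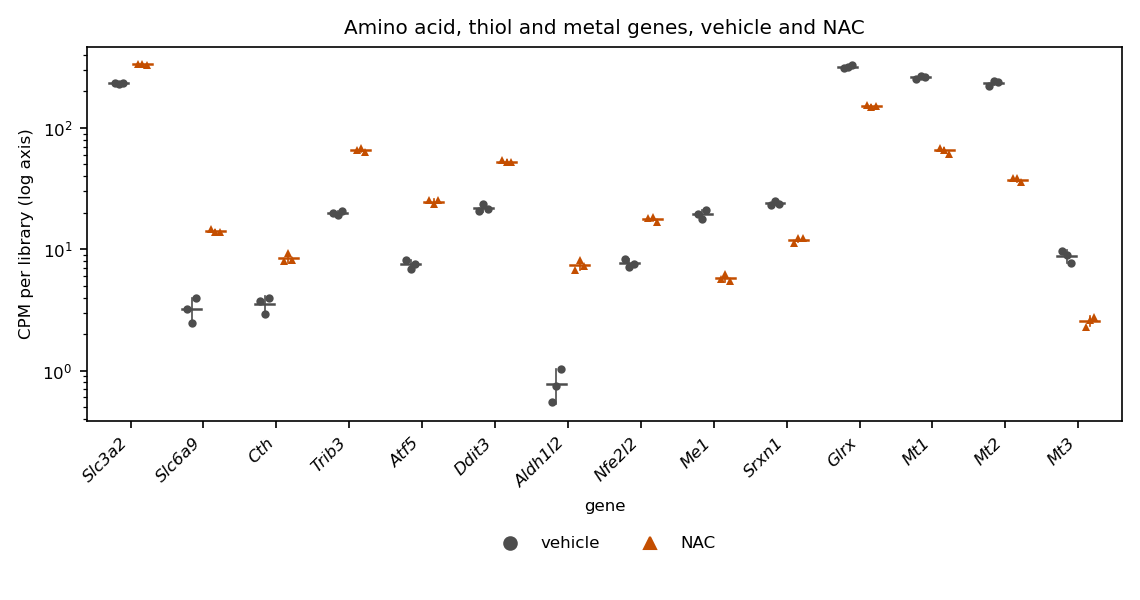
CPM in each library on a log axis for 14 genes of amino acid transport, stress, thiol and metal handling, with grey circles for vehicle and orange triangles for NAC. Horizontal bars are means and vertical bars 1 SD of 3 libraries. Slc6a9, Trib3, Atf5, Ddit3, Aldh1l2 and Nfe2l2 lie higher with NAC, and Me1, Srxn1, Glrx, Mt1, Mt2 and Mt3 lower, without overlap. Of all genes tested, 65.9% had no overlap.

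Genes on the list for Nrf2, the factor that oxidants release to switch on antioxidant genes, fell more often than they rose. The list holds targets and also regulators, among them Nfe2l2, Keap1, Bach1 and Bach2. Nfe2l2, which encodes Nrf2, was at 8.32, 7.09 and 7.61 CPM with vehicle and 18.3, 18.5 and 16.9 CPM with NAC (1.22 ± 0.08). Bach1, a repressor of the same elements, rose (0.81 ± 0.07). Of the 27 genes of that list, 6 rose and 14 fell (8 and 11 with library totals alone). Past 1.5-fold, 3 were higher and 2 lower. Me1, the malic enzyme that makes NADPH in the cytosol, was at 19.6, 17.8 and 20.97 CPM with vehicle and 5.66, 6.27 and 5.48 CPM with NAC (-1.74 ± 0.10, adjusted p = 1.46e-12), with all NAC libraries below all vehicle libraries. Pgd, of the pentose phosphate pathway, fell (-0.48 ± 0.04), whereas the mitochondrial NADPH source Idh2 rose from 26.1, 23.6 and 25.9 CPM with vehicle to 53.1, 52.6 and 51.5 CPM with NAC (1.06 ± 0.07). In the NADPH list, 5 of 20 rose and 12 fell (7 and 8 with library totals alone).

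Thioredoxin genes split, with 10 of 28 higher and 10 lower (15 and 8 with library totals alone). Of all genes tested, 29.6% were higher and 30.0% lower, and 10.7% of the list passed 1.5-fold against 10.4% of all genes. Txnip, which binds thioredoxin and restrains glucose uptake, was at 967, 973 and 973 CPM with vehicle and 1541, 1522 and 1516 CPM with NAC (0.65 ± 0.02). Prdx6, a peroxidase for lipid peroxides, rose (0.53 ± 0.04), and Prdx2, a peroxidase for hydrogen peroxide, fell (-0.53 ± 0.03). The selenoprotein gene Selenow fell past 1.5-fold (294, 314 and 291 CPM with vehicle and 187, 183 and 183 CPM with NAC, -0.70 ± 0.04), and Sesn3, of the stress-induced sestrin family, rose (0.40 ± 0.03).

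The 3 metallothionein genes had the largest falls of the metal list, and no other member passed 1.5-fold. These small proteins bind zinc and copper through cysteines. Mt2 was at 224, 243 and 238 CPM with vehicle and 38.7, 38.5 and 35.5 CPM with NAC (-2.65 ± 0.04), and Mt1 was at 256, 267 and 264 CPM with vehicle and 68.3, 66.1 and 61.4 CPM with NAC (-2.01 ± 0.06). Mt3 followed at 9.76, 8.89 and 7.72 CPM with vehicle and 2.30, 2.61 and 2.78 CPM with NAC (-1.77 ± 0.14, adjusted p = 5.22e-10). Slc30a1, a zinc exporter that Mtf1 controls, fell less (-0.35 ± 0.10), as did Mtf1 itself (-0.30 ± 0.06), and the zinc importer Slc39a10 rose (0.66 ± 0.06). Over the whole list of 24 metal genes, 5 rose and 11 fell. Iron storage transcripts fell with them: Ftl1 was at 1253, 1268 and 1203 CPM with vehicle and 905, 905 and 868 CPM with NAC (-0.48 ± 0.03) and Fth1 had -0.25 ± 0.04. Steap3, an endosomal ferrireductase, fell past 1.5-fold (-1.02 ± 0.11), and the mitochondrial iron carrier Slc25a28 rose past it (0.88 ± 0.06). The transferrin receptor Tfrc did not pass the test (-0.07 ± 0.03, adjusted p = 0.104), though it was called lower with only the 6 libraries or without replicate 1 of genipin with NAC.

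Heat shock genes did not move as a class. Among 20 tested, 5 rose and 8 fell (10 and 4 with library totals alone), and the count of rises was 3 without NAC replicate 2, vehicle replicate 1 or vehicle replicate 2. The 3 members that rose past 1.5-fold were low. Hspb1, a small heat shock protein gene, was at 0, 0.0835 and 0 CPM with vehicle and 1.89, 1.32 and 1.07 CPM with NAC, under the counting floor with vehicle, so the size of its rise is poorly defined. The 2 inducible Hsp70 genes rose, Hspa1a by 3.53 ± 0.21, and Hspa1b was at 1.06, 1.08 and 1.64 CPM with vehicle and 7.96, 6.65 and 7.42 CPM with NAC (2.52 ± 0.20). The constitutive chaperones fell, with Hspa8 at -0.34 ± 0.02 and Hsp90ab1 at -0.31 ± 0.02, the latter from 4332, 4390 and 4404 CPM with vehicle to 3550, 3520 and 3546 CPM with NAC.

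Energy genes changed selectively. Of 25 genes of glycolysis and lactate transport, 9 rose and 13 fell (8 fell with library totals alone). Pfkl, the liver-type phosphofructokinase, was at 157, 155 and 157 CPM with vehicle and 90.9, 89.8 and 89.9 CPM with NAC (-0.79 ± 0.04), and the lactate exporter Slc16a3 fell from 143, 146 and 142 CPM with vehicle to 90.4, 84.1 and 89.7 CPM with NAC (-0.70 ± 0.04). Other members went up: Pfkfb3, which makes the activator of phosphofructokinase, was at 54.9, 52.1 and 52.0 CPM with vehicle and 81.5, 86.7 and 87.2 CPM with NAC (0.69 ± 0.04), and Ldhb rose by 1.13 ± 0.12 at low levels. Ldha (-0.40 ± 0.03) and the glucose transporter Slc2a1 (-0.32 ± 0.04) fell. Of the hypoxia genes 9 of 23 were higher and 9 lower (13 and 6 with library totals alone), against 29.6% and 30.0% of all genes tested. Hif1a rose (0.58 ± 0.03) and Epas1, which encodes the related Hif-2 alpha, fell from 15.5, 17.9 and 17.2 CPM with vehicle to 5.29, 4.84 and 6.36 CPM with NAC (-1.62 ± 0.11). Bnip3, a mitophagy receptor, fell (263, 252 and 262 CPM with vehicle and 137, 150 and 148 CPM with NAC, -0.84 ± 0.04), while the collagen prolyl hydroxylase P4ha2 rose (8.87, 9.43 and 9.36 CPM with vehicle and 25.8, 26.3 and 26.0 CPM with NAC, 1.496 ± 0.07) and Vegfa rose too (0.61 ± 0.05).

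In fat metabolism, synthesis leaned higher and oxidation lower. Fatty acid synthesis had 11 of 19 genes higher and 3 lower, with Acacb past 1.5-fold (1.68 ± 0.16) at low levels and Fasn at 0.28 ± 0.04. Fatty acid oxidation had 3 of 22 higher and 9 lower, which became 7 and 5 with library totals alone. Of these, 2 genes fell past 1.5-fold: Acadl, the long-chain acyl-CoA dehydrogenase, was at 396, 399 and 393 CPM with vehicle and 211, 214 and 212 CPM with NAC (-0.90 ± 0.03), and Etfb, a subunit of its electron acceptor, was at 73.0, 79.4 and 74.0 CPM with vehicle and 30.4, 35.1 and 32.7 CPM with NAC (-1.20 ± 0.05). Of the cholesterol genes 14 of 32 rose and 7 fell, 1 each past 1.5-fold, with a median of 0.03.

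Transcripts of respiration and translation shifted down by small amounts over many members of several complexes, by an amount that depended on the scaling. Of 37 nuclear genes of respiratory complex I, 30 fell and 1 rose, with a median of -0.28, and of 37 genes of complexes III to V, 32 fell (median -0.25) and none rose. No gene of either list passed 1.5-fold. Cox5b, of cytochrome oxidase, was at 160, 164 and 161 CPM with vehicle and 105, 102 and 111 CPM with NAC (-0.61 ± 0.05), and Ndufb2, of complex I, was at 31.1, 28.3 and 29.9 CPM with vehicle and 18.3, 18.2 and 19.3 CPM with NAC (-0.68 ± 0.06). Messages from the mitochondrial genome were less uniform, with 8 of 13 lower and none higher. mt-Cytb was at 1324, 1264 and 1304 CPM with vehicle and 738, 756 and 763 CPM with NAC (-0.79 ± 0.04), whereas mt-Co1 had 0.01 ± 0.03 and did not pass the test (0.13 and called with library totals alone). Among 78 cytosolic ribosomal protein genes 64 fell (median -0.20) and none rose, and among 58 mitochondrial ones 42 fell (median -0.22) and none rose. Mrps24, of the mitochondrial ribosome, was at 30.7, 30.5 and 29.0 CPM with vehicle and 20.8, 19.5 and 19.2 CPM with NAC (-0.60 ± 0.06). With library totals alone the medians of these 4 nuclear lists stayed below 0 (-0.17, -0.14, -0.08 and -0.10), with 23, 23, 43 and 22 members then called lower and 4, 3, 8 and 2 higher. Myc, which drives ribosome synthesis, fell (-0.36 ± 0.04), and its relative Mycn fell further, from 49.3, 54.7 and 52.5 CPM with vehicle to 18.2, 18.0 and 17.4 CPM with NAC (-1.55 ± 0.06). Among processed pseudogenes, many of which copy such genes, 78 of 496 fell and 11 rose. Both are smaller shares than the 30.0% lower and 29.6% higher of all genes tested.

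**Figure D3:**
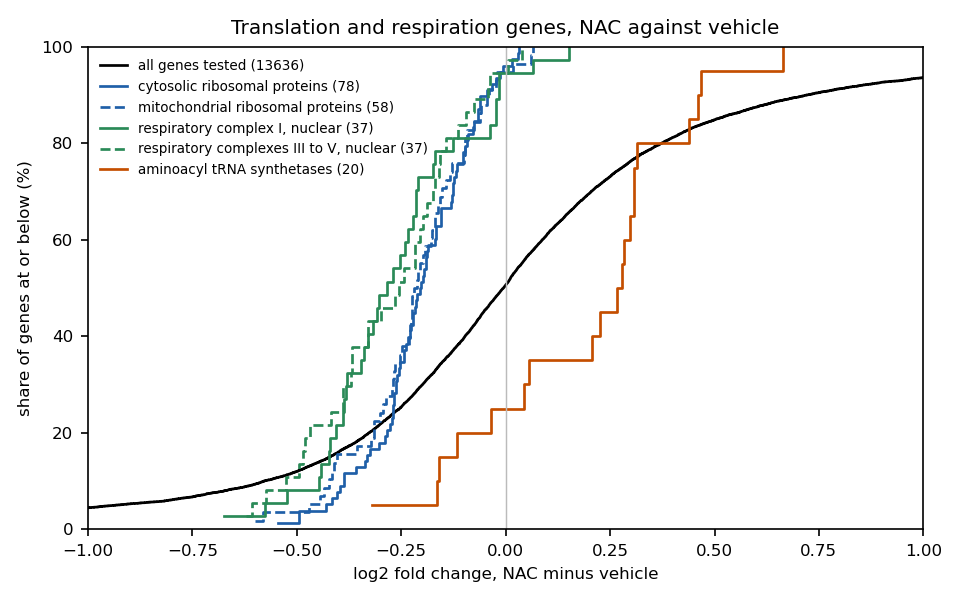
Cumulative share of genes (y axis, %) at or below each log2 fold change (x axis, NAC minus vehicle) for all genes tested and 5 lists, with the number of genes in parentheses; the x axis is cut at -1 and 1. The ribosomal and respiratory lists lie to the left of 0 over most of their members, with medians between -0.28 and -0.20, and tRNA synthetases lie to the right with a median of 0.27.

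Early activation genes mostly fell, with clear exceptions. These are genes that receptor signals switch on within minutes, and of 23 tested 15 fell and 5 rose. Egr2 was at 11.7, 13.1 and 13.5 CPM with vehicle and 5.52, 4.91 and 5.41 CPM with NAC (-1.28 ± 0.09), Fosb at 5.58, 5.22 and 5.001 CPM with vehicle and 1.66, 1.40 and 1.98 CPM with NAC (-1.64 ± 0.16) and Junb at 535, 549 and 503 CPM with vehicle and 321, 315 and 310 CPM with NAC (-0.75 ± 0.05). Egr1 was lower by little (-0.08 ± 0.03, adjusted p = 0.0224): the difference turned to 0.04 with library totals alone, and the call was lost without NAC replicate 2 or 3 or vehicle replicate 2 or 3. Nr4a1, an orphan nuclear receptor induced by antigen receptor signals, went the other way, from 11.7, 13.6 and 12.9 CPM with vehicle to 61.3, 58.5 and 60.7 CPM with NAC (2.24 ± 0.08, adjusted p = 1.18e-15), and Klf10 rose (0.85 ± 0.04). Of the genes that ERK signalling induces as its own brakes, Spry2 fell from 20.8, 21.6 and 21.6 CPM with vehicle to 4.74, 4.91 and 5.14 CPM with NAC (-2.11 ± 0.08) while the ERK-dependent factor Etv5 rose (1.17 ± 0.11). Tnfaip3, the ubiquitin-editing enzyme A20 that limits NF-kB, was at 45.6, 40.7 and 43.7 CPM with vehicle and 127, 124 and 122 CPM with NAC (1.52 ± 0.04). The NF-kB list as a whole had 7 of 23 higher and 6 lower (12 higher with library totals alone), against 29.6% and 30.0% of all genes tested. Of 34 genes of the receptor complex and its proximal signalling 18 rose and 11 fell (23 and 7 with library totals alone), 3 and 0 of them past 1.5-fold. Among the signalling genes, Themis fell (-0.62 ± 0.04), Tespa1, which couples the receptor to calcium signals, rose from 11.6, 12.5 and 13.8 CPM with vehicle to 29.9, 32.6 and 32.9 CPM with NAC (1.33 ± 0.09), and the negative regulator Cd5 rose (0.56 ± 0.05).

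Transcription factors of T cell fate changed in both directions, and 11 of 39 passed 1.5-fold, 8 higher and 3 lower. Id2, which supports effector cells, was at 397, 394 and 400 CPM with vehicle and 151, 151 and 149 CPM with NAC (-1.40 ± 0.03). Irf4, induced in proportion to receptor signal, was at 265, 264 and 271 CPM with vehicle and 162, 164 and 161 CPM with NAC (-0.72 ± 0.03, adjusted p = 3.94e-14), and Myb was at 83.6, 82.8 and 82.7 CPM with vehicle and 43.6, 44.1 and 42.6 CPM with NAC (-0.93 ± 0.05). Prdm1, which encodes Blimp-1, fell less (-0.63 ± 0.04). Bcl6, which opposes Blimp-1, was low and rose from 1.35, 1.21 and 1.43 CPM with vehicle to 5.34, 4.0043 and 4.72 CPM with NAC (1.80 ± 0.18). Bach2, a repressor of effector genes, was at 11.8, 11.02 and 11.9 CPM with vehicle and 21.5, 21.8 and 20.03 CPM with NAC (0.86 ± 0.07), and Rora at 4.90, 5.30 and 5.47 CPM with vehicle and 13.2, 12.7 and 13.2 CPM with NAC (1.32 ± 0.09). Id3 also rose, from 1.77 ± 0.323 to 3.67 ± 0.559 CPM (SD, n = 3; 1.07 ± 0.21). Tox, a factor of chronically stimulated T cells, was at 0.0422, 0.0835 and 0.143 CPM with vehicle and 3.54, 3.93 and 3.9979 CPM with NAC. Its vehicle values were at or near the counting floor, so the size of its rise is poorly defined.

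**Figure D4:**
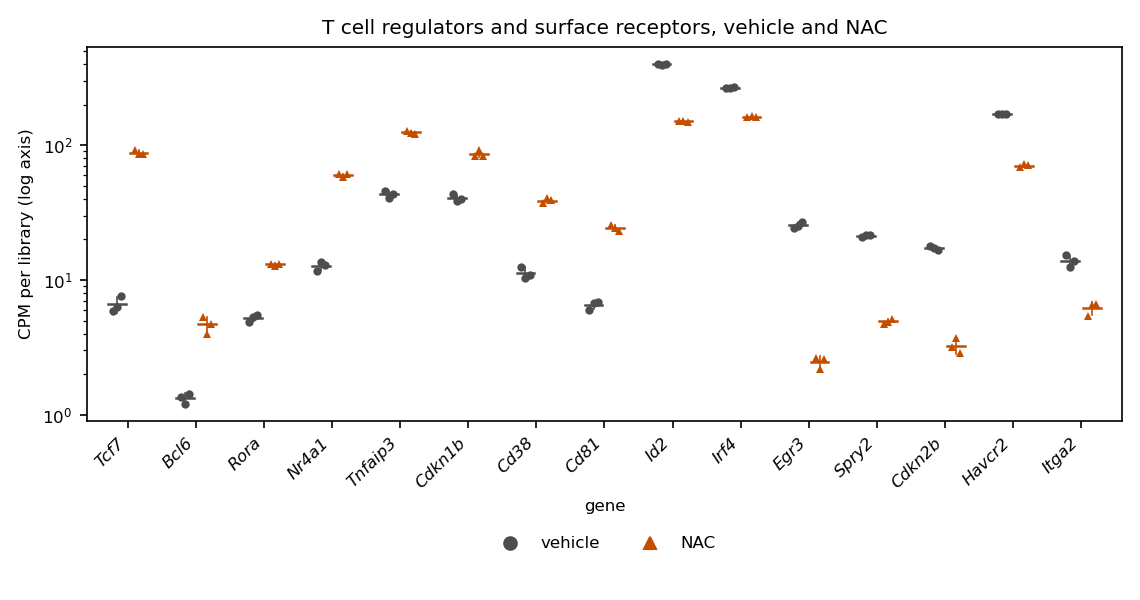
CPM in each library on a log axis for 15 regulators and surface receptors of T cells, with grey circles for vehicle and orange triangles for NAC; horizontal bars are means and vertical bars 1 SD of 3 libraries. The 8 genes on the left, from Tcf7 to Cd81, lie higher with NAC and the 7 on the right, from Id2 to Itga2, lie lower. None overlaps between groups, as was the case for 65.9% of all genes tested.

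Receptors named for naive and memory cells did not follow one direction. Of 21 tested, 8 rose and 11 fell, and 4 and 7 passed 1.5-fold (4 lower ones with library totals alone). Ly6c2 was at 626, 643 and 655 CPM with vehicle and 222, 218 and 223 CPM with NAC (-1.54 ± 0.04) and Slamf6 at 8.15, 9.14 and 7.82 CPM with vehicle and 2.90, 3.02 and 3.43 CPM with NAC (-1.42 ± 0.13). Against these, Igfbp4 was at 6.55, 6.72 and 6.97 CPM with vehicle and 18.2, 19.2 and 21.02 CPM with NAC (1.53 ± 0.09) and Actn1, an actin crosslinker of naive cells, at 13.9, 13.1 and 11.8 CPM with vehicle and 31.3, 30.4 and 34.9 CPM with NAC (1.32 ± 0.08). Outside the granzymes, the calcium-binding protein gene S100a6 fell from 751, 761 and 702 CPM with vehicle to 182, 188 and 176 CPM with NAC (-2.02 ± 0.05). Prf1, the pore protein perforin, fell too (-1.24 ± 0.03). In the list of terminal effector and killer molecules as a whole 24 of 31 fell, 18 past 1.5-fold, and 4 rose. Interferon gamma, Ifng (0.18 ± 0.04), and the death ligand Fasl (0.17 ± 0.05) were among the 4, and Fasl was no longer called without NAC replicate 2.

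Inhibitory receptors divided. Havcr2, which encodes Tim-3, was at 171, 170 and 169 CPM with vehicle and 68.7, 71.9 and 70.8 CPM with NAC (-1.27 ± 0.04), Cd244a at 66.3, 68.4 and 69.5 CPM with vehicle and 29.0, 29.1 and 28.6 CPM with NAC (-1.24 ± 0.05), and Tigit (-0.78 ± 0.05), Vsir (-0.91 ± 0.03) and Pdcd1 (-0.68 ± 0.04) fell past 1.5-fold too. Cd38, an ectoenzyme that consumes NAD, went from 12.5, 10.3 and 10.9 CPM with vehicle to 37.0, 40.4 and 39.0 CPM with NAC (1.79 ± 0.08). Nt5e, the ectonucleotidase Cd73, was at 7.01, 5.68 and 5.61 CPM with vehicle and 14.4, 13.8 and 15.7 CPM with NAC (1.27 ± 0.09), whereas Entpd1, which acts one step before it, fell (-0.64 ± 0.03). Ctla4 (0.26 ± 0.04) and Lag3 (0.30 ± 0.04) rose slightly. In all 4 of 20 were higher and 5 lower past 1.5-fold (3 lower with library totals alone). Among costimulatory receptors, Cd226 (41.1, 39.1 and 37.3 CPM with vehicle and 68.5, 72.1 and 72.5 CPM with NAC, 0.86 ± 0.05) and Tnfrsf4, which encodes OX40 (0.80 ± 0.06), rose, and Icos (202, 197 and 208 CPM with vehicle and 110, 109 and 113 CPM with NAC, -0.87 ± 0.03), Tnfrsf8 (-1.13 ± 0.03) and Cd48 (-1.35 ± 0.03) fell.

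Receptors for cytokines followed. The IL-2 receptor chains fell together, Il2rb from 1628, 1666 and 1667 CPM with vehicle to 1001, 972 and 988 CPM with NAC (-0.74 ± 0.03), with Il2ra at -0.50 ± 0.03 and Il2rg at -0.48 ± 0.03. Il4ra (0.50 ± 0.03) and Il21r (0.36 ± 0.03) rose, while the IL-18 receptor chains Il18r1 (150, 137 and 138 CPM with vehicle and 71.5, 79.0 and 73.0 CPM with NAC, -0.93 ± 0.04) and Il18rap (-0.75 ± 0.04) fell. Ifngr2, the signalling chain of the interferon gamma receptor, was at 2.49, 2.63 and 2.71 CPM with vehicle and 14.8, 15.6 and 15.2 CPM with NAC (2.53 ± 0.12), 1 of the 25 largest rises above 5 CPM. Tgfbr2, the ligand-binding receptor for TGF-beta, fell from 278, 283 and 284 CPM with vehicle to 151, 151 and 152 CPM with NAC (-0.90 ± 0.03), and its signal carrier Smad3 rose (0.75 ± 0.08), as did the co-repressor Tgif1 (1.24 ± 0.08). Of cytokines, Il10 fell from 34.9, 37.1 and 39.4 CPM with vehicle to 4.28, 5.67 and 4.68 CPM with NAC (-2.92 ± 0.09) and Spp1, osteopontin, from 733, 683 and 693 CPM with vehicle to 261, 266 and 259 CPM with NAC (-1.42 ± 0.04), and Il24 (28.4, 31.1 and 30.1 CPM with vehicle and 78.2, 76.6 and 80.8 CPM with NAC, 1.39 ± 0.06) and Lta (0.85 ± 0.06) rose.

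Genes of homing and adhesion changed in both directions. The chemokine receptor Cxcr6 (237, 229 and 234 CPM with vehicle and 45.2, 42.9 and 44.02 CPM with NAC, -2.41 ± 0.05) fell, and Cxcr3 rose (0.70 ± 0.07). Integrin alpha chains for collagen and laminin, Itga2 (15.2, 12.5 and 13.8 CPM with vehicle and 5.43, 6.57 and 6.63 CPM with NAC, -1.15 ± 0.10) and Itga3 (-1.01 ± 0.08), fell, while Itga5, for fibronectin, rose (1.298 ± 0.15). The tetraspanin Cd81 rose from 5.999, 6.80 and 6.82 CPM with vehicle to 25.4, 24.1 and 22.9 CPM with NAC (1.88 ± 0.10). In all, 11 of 38 adhesion genes rose and 20 fell (15 and 16 with library totals alone), and 6 were higher and 4 lower past 1.5-fold. Of 28 chemokine receptors 9 rose and 12 fell (13 and 11 with library totals alone), 3 and 7 of them past 1.5-fold. Of 33 sialyltransferases and other genes of glycan synthesis 8 rose and 15 fell (11 and 11 with library totals alone). Fut7, which makes selectin ligands, was at 44.4, 49.7 and 46.0 CPM with vehicle and 16.7, 16.4 and 17.0 CPM with NAC (-1.48 ± 0.06), and St3gal1 fell from 135, 139 and 143 CPM with vehicle to 50.2, 50.5 and 51.2 CPM with NAC (-1.46 ± 0.04). St6gal1, which adds sialic acid in the other linkage, rose from 1.90, 2.59 and 1.14 CPM with vehicle to 12.9, 12.3 and 13.8 CPM with NAC (2.81 ± 0.15), and St8sia1 rose from 8.03, 8.26 and 8.64 CPM with vehicle to 24.5, 27.01 and 27.3 CPM with NAC (1.66 ± 0.08).

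Cytoskeletal transcripts fell broadly. Of 39 genes 28 fell and 9 rose, and 10 fell past 1.5-fold (3 with library totals alone). The largest falls were those of the membrane protein gene Emp1 (92.6, 87.1 and 90.3 CPM with vehicle and 21.5, 24.4 and 23.99 CPM with NAC, -1.95 ± 0.05) and of Lmna, which encodes lamins A and C (38.4, 39.7 and 36.8 CPM with vehicle and 13.8, 12.5 and 14.8 CPM with NAC, -1.48 ± 0.07). Actb was at 6638, 6810 and 6781 CPM with vehicle and 3891, 3815 and 3804 CPM with NAC (-0.81 ± 0.03), and the crosslinker Flna (-0.72 ± 0.03) and myosin gene Myh9 (-0.72 ± 0.03) fell alike. Rhoh, a GTPase of blood cells needed for T cell receptor signals, rose from 65.9, 61.5 and 66.8 CPM with vehicle to 137, 139 and 138 CPM with NAC (1.09 ± 0.04).

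Survival and cell cycle regulators showed paired opposite changes. Cdkn2b, next to Cdkn2a and encoding the Cdk4 inhibitor p15, was at 17.9, 17.2 and 16.7 CPM with vehicle and 3.17, 3.70 and 2.89 CPM with NAC (-2.40 ± 0.11), whereas Cdkn1b, which encodes p27, was at 43.2, 38.5 and 40.0 CPM with vehicle and 83.2, 92.4 and 83.3 CPM with NAC (1.09 ± 0.05, adjusted p = 1.01e-13). Of the BCL2 family, 6 of 16 passed 1.5-fold. The death-promoting Bcl2l11, which encodes Bim, was at 21.7, 19.7 and 22.8 CPM with vehicle and 53.2, 51.5 and 54.8 CPM with NAC (1.31 ± 0.05), and Bmf rose (1.26 ± 0.10), but the survival gene Bcl2 rose as well (127, 123 and 128 CPM with vehicle and 206, 213 and 211 CPM with NAC, 0.74 ± 0.03). Bcl2a1b, a survival gene with near-identical copies, was at 82.3, 83.2 and 85.4 CPM with vehicle and 29.0, 28.4 and 28.6 CPM with NAC (-1.54 ± 0.04), and Mcl1 fell slightly (-0.23 ± 0.03). Among p53 targets 14 of 24 rose and 5 fell, with Plk2 (0.87 ± 0.06) and Trp53inp1 (148, 150 and 152 CPM with vehicle and 234, 251 and 249 CPM with NAC, 0.71 ± 0.04) past 1.5-fold.

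Chromatin enzymes leaned higher, 20 of 37 with 3 lower (32 higher with library totals alone). Tet1, which oxidises methylated cytosine, was low and rose from 1.01, 1.17 and 1.11 CPM with vehicle to 4.78, 5.67 and 7.16 CPM with NAC (2.42 ± 0.19), while its relative Tet3 fell (-0.26 ± 0.05). Kdm6b, a demethylase of the Polycomb mark, was at 20.2, 20.4 and 21.8 CPM with vehicle and 34.8, 35.1 and 35.2 CPM with NAC (0.75 ± 0.07), and Ezh2, which writes that mark, rose (0.50 ± 0.04). The nuclear long noncoding RNA Neat1 fell from 122, 118 and 115 CPM with vehicle to 57.8, 55.2 and 54.4 CPM with NAC (-1.09 ± 0.04), and Malat1 did not pass the test (0.00 ± 0.06). In cyclic AMP signalling 14 of 25 rose and 6 fell, with the cyclase Adcy6 at 8.15, 9.43 and 9.50 CPM with vehicle and 33.9, 31.5 and 31.4 CPM with NAC (1.83 ± 0.07) and the phosphodiesterase Pde8a rising (1.59 ± 0.12).

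Interferon genes split by class. In the list of genes induced by type I interferon 36 of 41 fell, 24 past 1.5-fold, and 2 rose. Isg15 was at 18.9, 21.2 and 20.4 CPM with vehicle and 4.65, 4.61 and 4.53 CPM with NAC (-2.13 ± 0.08) and Oas1a at 19.5, 19.4 and 19.5 CPM with vehicle and 3.73, 3.97 and 3.27 CPM with NAC (-2.41 ± 0.09), the 2 genes whose promoters are printed above. GTPases induced by interferon gamma were mixed, with 10 of 20 higher and 8 lower (4 lower with library totals alone). Past 1.5-fold 2 were higher and 3 lower (3 and 0 with library totals alone). Iigp1 rose from 9.34, 9.31 and 9.54 CPM with vehicle to 22.4, 20.6 and 20.6 CPM with NAC (1.17 ± 0.07) and Gbp8 from 32.6, 32.3 and 31.6 CPM with vehicle to 65.6, 65.7 and 68.0 CPM with NAC (1.05 ± 0.05), and Gbp3 fell (-0.72 ± 0.05). H2-K1, a classical MHC class I gene, rose slightly (0.18 ± 0.03).

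Summed markers of other cell types were higher with NAC for each list but that of NK receptors, while single genes moved in both directions. The B cell list summed to 43.1 to 44.4 CPM with vehicle and 194 to 207 CPM with NAC, nearly all of it Ighm, the immunoglobulin mu constant region, at 38.4, 40.0 and 39.6 CPM with vehicle and 193, 190 and 182 CPM with NAC (2.26 ± 0.04). Only 5 of 15 B cell genes were tested, and Ms4a1 and Cd79a, which mark B cells, had at most 8 counts in any of the 6 libraries. MHC class II genes summed to 125 to 126 CPM and 231 to 247 CPM, with H2-Eb1 at 3.59, 2.84 and 2.93 CPM with vehicle and 23.5, 22.7 and 19.1 CPM with NAC (2.80 ± 0.12) and Cd74, the invariant chain, not past the test (0.08 ± 0.19, adjusted p = 0.732). The mast cell list summed to 28.5 to 31.6 CPM with vehicle and 58.7 to 60.4 CPM with NAC. Of its 4 tested genes Kit rose (1.83 ± 0.04), while Mcpt8 (6.93, 6.84 and 6.79 CPM with vehicle and 0.414, 0.264 and 0.495 CPM with NAC, -4.12 ± 0.21) and Cpa3 (-0.88 ± 0.12) fell past 1.5-fold, and 3 of its 11 genes were at 0 in all 6 libraries. The myeloid list summed to 46.9 to 50.6 CPM with vehicle and 68.0 to 73.5 CPM with NAC. Of its 5 tested genes Cd68 (0.66 ± 0.07) and Itgam (0.50 ± 0.09) rose, and Flt3 (-3.52 ± 0.45) and Cd14 (-1.47 ± 0.25) fell past 1.5-fold at low levels, with 9 of 22 genes at 0, C1qa, S100a8 and Csf3r among them. The list of CD4, regulatory and gamma-delta T cells summed to 140 to 153 CPM with vehicle and 178 to 187 CPM with NAC. Of its 8 tested genes 5 rose and 0 fell. The erythroid and platelet list was low, at 1.44 to 1.79 CPM with vehicle and 2.44 to 3.13 CPM with NAC. NK receptors fell from between 634 and 657 to between 374 and 386 CPM, 15 of 19 tested falling and none rising. Their part in the results above was not tested.

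Some of the largest changes were in genes on none of the lists. Rcn3, a calcium-binding protein of the secretory pathway, was at 6.76, 7.05 and 5.89 CPM with vehicle and 51.5, 53.2 and 52.1 CPM with NAC (3.00 ± 0.08). Spock2, an extracellular proteoglycan, was at 2.58, 2.75 and 2.54 CPM with vehicle and 20.6, 21.7 and 21.8 CPM with NAC (3.03 ± 0.12), and the semaphorin receptor Plxnb2 at 13.4, 14.4 and 13.7 CPM with vehicle and 66.1, 62.4 and 62.7 CPM with NAC (2.21 ± 0.06). Slc6a19, a neutral amino acid transporter known from gut and kidney, was at 1.44, 1.63 and 2.0004 CPM with vehicle and 12.1, 11.97 and 11.96 CPM with NAC (2.82 ± 0.14). On the falling side, Lrp1, an endocytic receptor, was at 27.4, 29.5 and 30.3 CPM with vehicle and 4.23, 4.08 and 3.05 CPM with NAC (-2.95 ± 0.11), Ermn at 11.6, 12.8 and 12.2 CPM with vehicle and 1.24, 1.47 and 1.94 CPM with NAC (-2.96 ± 0.17) and Scin, an actin-severing protein, at 11.6, 12.6 and 11.002 CPM with vehicle and 1.98, 2.38 and 2.21 CPM with NAC (-2.41 ± 0.12).

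The NAC effect was set beside its value in the presence of genipin, a plant compound used to inhibit Ucp2, in 3 libraries with both compounds and 3 with genipin alone. Of the 8134 genes called with NAC alone, 4897 (60.2%) were called in the same direction with genipin present, 1458 in the opposite direction and 1779 in neither. Of the 1423 past 1.5-fold, 1116 (78.4%) were called in the same direction and 123 in the opposite one. The share of all genes tested that were called with genipin present was not counted, so these percentages cannot be set against it. The test of the difference itself called 7008 genes (51.4%), among them 4779 of the 8134 and 817 of the 1423. Both of those sets were picked on the effect of NAC alone, which is part of the difference. A higher NAC effect with genipin was called for 3733 genes (27.4% of all genes tested) and a lower one for 3275. With library totals alone the balance turned, to 2618 higher and 4806 lower. Mt2 fell in both settings (-2.65 ± 0.04 alone, -1.93 ± 0.04 with genipin), but by less with genipin (difference 0.72 ± 0.06, adjusted p = 1.98e-09). Nr4a1 rose in both (2.24 ± 0.08 and 2.19 ± 0.09, difference -0.05 ± 0.13, adjusted p = 0.771). Cxcr6 fell with NAC alone and rose slightly with genipin present (-2.41 ± 0.05 and 0.19 ± 0.04, difference 2.60 ± 0.06), and Il10 fell far more alone (-2.92 ± 0.09 and -0.72 ± 0.09). St6gal1 rose more with genipin (2.81 ± 0.15 and 5.94 ± 0.22, difference 3.13 ± 0.34), as did Slc6a19 (2.82 ± 0.14 and 5.03 ± 0.24, difference 2.21 ± 0.35). Replicate 1 of the group with both compounds stood apart: the chi-square of its counts against the other replicates, per degree of freedom, was 7.01 and 8.13, whereas the other pairs within a group had 2.08 to 2.96. Without it the difference was called for 3800 genes upward and 3437 downward.

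**Figure D5:**
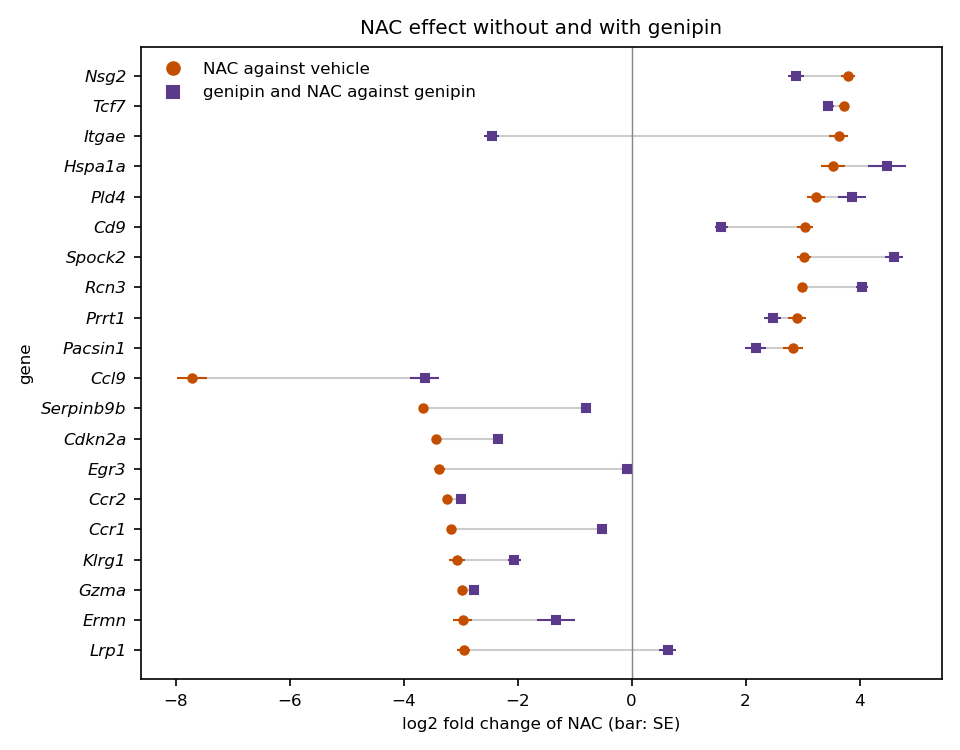
Log2 fold change of NAC (x axis, bars are SE) without genipin (orange circles, NAC against vehicle) and with genipin (purple squares, both compounds against genipin) for the 10 largest rises and 10 largest falls with NAC alone among genes with a mean of at least 5 CPM and no overlap between groups, predicted genes left out (y axis). Itgae and Lrp1 lie on opposite sides of 0 in the 2 settings, and Egr3 lies close to 0 (-0.07) with genipin.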

How the data were processed

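Total RNA of 12 libraries was sequenced as paired reads of 150 bases after removal of ribosomal RNA with a stranded kit, per the labels. The submitters' processing notes name bcl2fastq, cutadapt 1.18, STAR 2.7.0f, RSEM 1.3.1 and mm10, without a role for each. Each library came with a deposited table of genes whose columns, per the file headers, include expected counts, TPM and effective lengths in bases. The deposited expected counts were rounded and tested. The deposited TPM, length-scaled abundances, were kept in the tables and are not quoted, and the deposited FPKM were left out. Effective lengths, another column the authors deposited, served an alternative scaling. GENCODE mouse release 21 holds each of the 55450 gene IDs, with an equal symbol.

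Groups came from the labels. With edgeR 4.0.16 in R 4.3.3, filterByExpr kept 13636 genes, TMM factors ran from 0.961 to 1.05 in the 6 libraries, and 1 mean for each group was estimated over the 12 libraries together (8 residual and 12.6 prior degrees of freedom). CPM were computed from scaled totals. Genes were called with the quasi-likelihood test, and against 1.5-fold with glmTreat, at Benjamini-Hochberg adjusted p under 0.05. SE are the absolute log2 fold change over the square root of F and can be too small at low counts. The steps were tested on simulated data. Library totals of 20838894 to 29150867 counts give a floor of 3 counts for a gene with none.

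The members and the 64 gene lists were chosen with earlier results of these data known, so lists are described by counts and medians and not tested. The naming rule took the 25 largest rises and falls with a mean of at least 5 CPM and no overlap between groups, without predicted genes and pseudogenes. From each list it took up to 5 called members in each direction at that level, and it added preset key members and Ucp2. The text describes a part of these, and some genes are not reported here. Acacb, Aldh1l2, Cd14, Cd4, Cd74, Flt3, Fosb, Ggt1, Hspb1, Malat1, Mcpt8, Mtf1, Myh9, Pde8a, S100a6 and mt-Co1 were added after their values were seen, and Nupr1 through the rule for printed promoters (up to 2 called members with a match and the largest change per list). Promoters came from the RefSeq table on GRCm38.p6 and were searched on both strands.

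Alternatives were DESeq2 1.42.0, limma-voom with limma 3.58.1, RLE size factors, no normalization factors, effective-length offsets, 2 other filters, stricter thresholds, only the 6 libraries, the replicate number as a block, and each library left out in turn. After subtracting group means, the 3 pairs of NAC and vehicle libraries with the same number had correlations of -0.0139 to 0.0287, so the model has no block. Plots used Python 3.11.15 and matplotlib 3.10.9.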

Additional observations from a re-analysis of the deposited data

Results flagged for a closer look

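Among the 10 largest rises and 10 largest falls with NAC alone of genes with a mean of at least 5 CPM, no overlap between groups and a name that is not a predicted gene's, 16 had a NAC effect that differed when genipin was present, by the interaction test of edgeR with Benjamini-Hochberg adjustment over all genes. Over all genes tested, 51.4% were called by this test. The genes were picked for a large effect with NAC alone, which is itself part of the difference. The choice therefore favours smaller effects with genipin. Values are log2 differences, the effect with genipin minus that without.

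Itgae, the CD103 chain that binds E-cadherin, changed direction (3.63 alone and -2.45 with genipin, difference -6.09 ± 0.21, adjusted p = 5.71e-16). Lrp1 did so from the falling side (-2.95 alone and 0.63 with genipin, difference 3.58 ± 0.19, adjusted p = 7.30e-13). For 6 other genes that fell, the fall was smaller by more than 1 with genipin: the differences were 4.08 for the chemokine gene Ccl9, 3.30 for Egr3, 2.86 for the serpin gene Serpinb9b, 2.64 for the chemokine receptor Ccr1, 1.64 for Ermn and 1.08 for Cdkn2a. Ccl9 had 0.0378 to 0.0762 CPM with NAC alone, below the floor of 3 counts, so its difference is poorly defined. Ermn had 0.657 to 1.07 CPM with genipin and 0.215 to 0.490 CPM with both compounds, near that floor, so its difference is uncertain too. For Klrg1, an inhibitory receptor of terminal effector cells, the difference was 1.00. It was small for Ccr2 (0.25) and for Gzma (0.21).

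Of the rises, those of Spock2 (1.58) and Rcn3 (1.05) were larger with genipin. Those of the tetraspanin gene Cd9 (-1.46), of Nsg2 (-0.91) and of Pacsin1 (-0.65, adjusted p = 0.0498) were smaller. Without replicate 1 of the group with both compounds, whose counts differed most from the others of its group, Pacsin1 was no longer called (-0.58, adjusted p = 0.0740), Hspa1a was called (1.10, adjusted p = 0.0467), and the other 15 differences kept their sign and call.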

How the results depend on the processing

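The counts of genes higher and lower with NAC, by either threshold, and of genes whose NAC effect differed with genipin stayed within 1.5 times their reported values in 129 of 136 recomputations. The 7 exceptions follow. A filter at a mean of 5 CPM, with 9927 genes tested, left 403 higher and 320 lower past 1.5-fold. Library totals without normalization factors left 2700 lower. A minimum of 2-fold left 823 higher and 529 lower, and 917 with a higher and 428 with a lower NAC effect with genipin. Leaving out each of the 12 libraries in turn gave 3728 to 4255 higher and 3740 to 4286 lower, 745 to 872 and 528 to 620 past 1.5-fold, and 3482 to 3800 and 3109 to 3437 for the difference with genipin. DESeq2 gave 3862 higher and 3849 lower.

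With the replicate number as a block, 4007 genes were higher and 4043 lower, 7991 of these 8050 calls being shared in direction with the fit without it. The labels do not say that a number marks a shared mouse or day, 4 of the 6 libraries correlated best with their own number, and the pairing changed no count by more than 1.5 times.

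Among the values of named genes called in the reported fit or in the alternative, 1 changed sign: Egr1 had 0.0378 with library totals alone. Egr1 also lost its call with the filter at 5 CPM, with offsets from effective lengths and without NAC or vehicle replicate 2 or 3. Calls were lost by Fasl without NAC replicate 2, by Gss without NAC replicate 1, by Ggt1 with the offsets, and by Slc7a11 with the offsets or without vehicle replicate 1 or 2. Calls were gained by Tfrc (only the 6 libraries, or without replicate 1 of genipin with NAC) and mt-Co1 (library totals). The other 4160 values of named genes kept their call, and those called kept their direction. Sign changes of genes called in neither fit were not counted.

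Genes under about 0.1 CPM cannot be told from 0 at this depth. The doses, the length of exposure and the origin of the replicates are not in the labels, and markers of other cells moved with the treatment.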
